A study of Homo sapiens with 3 samples.

Results

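The mitochondrial ribosomal proteins are given here by gene: every row of the expression table named MRPL or MRPS followed by digits and at most 1 letter. The rule found 77 genes among 35805 rows, 48 with a large subunit name (MRPL) and 29 with a small subunit name (MRPS). It used gene names alone and no measured value. All 77 had a mean of at least 1 RPM and entered the tests. RPM is the number of reads of a gene per 1000000 reads of the library, as scaled by the authors. The 3 libraries hold RNA of Ishikawa, a human cell line derived from an adenocarcinoma of the endometrium. CLDN6 replicates 1 and 2 are of Ishikawa cells given a lentiviral vector for CLDN6 (claudin 6, a tight junction protein), an overexpression that the labels call transient, and the WT library is of wild-type cells without treatment. Values are given in the order CLDN6 replicate 1, CLDN6 replicate 2, WT. An empty vector was not among the groups, so effects of the vector and of CLDN6 cannot be told apart. WT has no replicate, and the labels do not say that the CLDN6 libraries came from separate cultures, so the spread behind the p-values is that of these samples alone and may be technical.

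The mitochondrial ribosome translates the few mRNAs that mitochondrial DNA encodes, all of them for subunits of oxidative phosphorylation. Its rRNAs come from mitochondrial DNA, while all of its proteins are encoded in the nucleus, made in the cytosol and imported. Many of these proteins have a counterpart in the bacterial ribosome, and the others are specific to mitochondria. Names do not always give the place: MRPS18A and MRPS30 sit in the large subunit, and MRPS36 is now known as a part of the oxoglutarate dehydrogenase complex. Factors of the ETS family, among them GABP (NRF-2), and the factors NRF1 and YY1 are known regulators of nuclear genes for mitochondrial proteins.

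Stretches before the gene starts are shown because the 77 genes lie on 21 chromosomes and the ETS and YY1 letters were more frequent in the promoters found than in those of other genes. RefSeq promoters (GRCh38.p14), each with 250 bases before and 50 after the start, were found for 68 members, 41 large and 27 small by name. The ETS letters CCGGAAG, searched on both strands, were in the promoters of 28 of the 68 (41.2%), in 19.3% of those of 9900 tested genes and in 10.3% of all 35116 promoters. MRPS34, at 3.33 times its replicate 1 level in replicate 2, and MRPS10 and MRPS31, both lower in replicate 2 than in replicate 1, all hold them. Below, up to 150 bases before each start that no annotated exon covers are in lower case, read 5′ to 3′ on the strand of the gene, with the ETS letters of either strand in capitals.
MRPS34 (chr16:1773156-1773206, minus strand): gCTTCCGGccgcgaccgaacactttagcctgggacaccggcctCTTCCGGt
MRPS10 (chr6:42217866-42218015, minus strand): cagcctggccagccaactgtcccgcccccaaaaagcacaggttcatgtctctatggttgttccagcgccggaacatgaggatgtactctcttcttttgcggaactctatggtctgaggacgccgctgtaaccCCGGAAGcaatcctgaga
MRPS31 (chr13:40771191-40771340, minus strand): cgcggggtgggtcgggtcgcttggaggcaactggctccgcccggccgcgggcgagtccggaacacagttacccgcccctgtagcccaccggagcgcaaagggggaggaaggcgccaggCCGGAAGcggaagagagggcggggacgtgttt

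The 10 YY1 letters, given in capitals in the lines that follow and searched on both strands, were in 13 of the 68 promoters (19.1%), against 2.81% of those of the tested genes and 1.20% of all promoters. In 9 of the 13 the ATG inside the letters is the annotated start codon, so that the same bases open the coding sequence. The match lay on the strand of the gene in 11 of 13 and began at or after the gene start in 10 of 13, at a median of 9 bases from it. Promoters of large and small subunit members held the YY1 letters in 8 of 41 and 5 of 27 cases, and the ETS letters in 16 of 41 and 12 of 27. Both sets of letters were in 4 promoters. For the match in 6 members, 10 bases on each side are shown in lower case, with the YY1 letters in capitals. MRPL42, MRPL50 and MRPS10 were higher in replicate 1 and MRPL38, MRPS18A and MRPS18B in replicate 2.
MRPL42 (chr12:93467512-93467541, plus strand): ggattgaaacAAGATGGCGGgttcgtggtg
MRPL50 (chr9:101398576-101398605, minus strand): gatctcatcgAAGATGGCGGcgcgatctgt
MRPS10 (chr6:42217833-42217862, minus strand): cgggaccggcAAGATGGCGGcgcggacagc
MRPL38 (chr17:75904859-75904888, minus strand): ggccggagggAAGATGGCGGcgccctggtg
MRPS18A (chr6:43687763-43687792, minus strand): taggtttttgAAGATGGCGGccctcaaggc
MRPS18B (chr6:30617853-30617882, plus strand): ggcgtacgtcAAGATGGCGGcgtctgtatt

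The SP1 letters GGGCGG were the most frequent of those searched, in 40 of the 68 promoters (58.8%), and more so in tested genes (71.1%). The TATA letters TATAAA were in 2 of 68 (2.94%), against 5.07%. The NRF1 letters GCATGCGC were in 6 of the 68 promoters (8.82%), against 5.60% of tested genes. Their longer form, with GC in front, whose matches are also counted in the shorter one, was in 1 of 68, against 2.35%. The CREB letters TGACGTCA were in 0 of 68, against 3.27% of tested genes, and the E-box CACGTG in 7 (10.3%), against 10.2%. Letters that match say nothing of binding, and their absence says only that they are not in this window. The median difference between the CLDN6 libraries, replicate 1 minus replicate 2 on the log2(RPM + 1) scale, was -0.66 over the 28 members with ETS letters and -0.52 over the 40 without, and -0.46 and -0.62 with and without YY1 letters.

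The introduced gene had the order that the labels give, with 354, 413 and 0.236 RPM of CLDN6. The epithelial markers EPCAM, KRT8, KRT18, KRT19, CDH1 and CLDN4 summed to 6108, 6366 and 6057 RPM, most of it KRT8 and KRT18. Singly, 3 of the 6 were lowest in replicate 2: CLDN4 was at 145, 48.2 and 138 RPM, CDH1 at 293, 116 and 235 RPM, and EPCAM at 194, 98.5 and 125 RPM. The 5 endometrial lineage markers summed to 443, 219.8 and 356 RPM, with ESR1 at 99.8, 17.2 and 71.7 RPM and EMX2 at 55.3, 18.9 and 46.7 RPM. KRT8 (3530, 3803 and 3529 RPM), KRT18 and KRT19 were highest in replicate 2. Of the other endometrial markers, PAX8 and HOXA10 were lowest and HOXA11 was highest in replicate 2. Most members were higher in replicate 2 than in replicate 1, and the part of the markers in the members' values was not tested. Of the mesenchymal and stromal markers, DCN and PDGFRB had 0 reads in all 3 libraries and VIM in both CLDN6 libraries, and the summed level of the 6 was 17.2, 49.5 and 22.6 RPM, nearly all of it COL1A1. The 5 immune markers summed to between 0.788 and 1.27 RPM. Library depths were 65755119 to 71088867 reads. The CLDN6 libraries stood apart from each other: the median of all 14509 genes tested lay 0.20 log2 units above WT in replicate 1 and below it (-0.35) in replicate 2, and changes below are set beside these shifts. In bulk RNA, fewer cells of a kind and less RNA per cell cannot be told apart.

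None of the 77 genes passed the test of CLDN6 against WT. The test was limma on log2(RPM + 1) over 14509 genes with Benjamini-Hochberg adjustment, and it called 1 gene (0.00689%), CLDN6. Among members, limma called 0 at an unadjusted p under 0.05 as well, against 0.0276% of all genes, limma-voom on recovered reads called 0, and the lowest unadjusted p was 0.597. With 1 residual and infinite prior degrees of freedom, limma gave members of similar level nearly the same error. The smallest error of a member was 0.92. What the members showed was a split between the CLDN6 libraries. Replicate 1 lay below and replicate 2 above WT in 37 of 77 members, against 22.0% of all genes tested. The reverse order, replicate 1 above and replicate 2 below WT, held in 13 of 77, against 53.8% of all genes. Both libraries lay above WT in 22 members, against 9.06% of all genes, and below it in 5, against 15.1%. Taken singly, replicate 1 lay above WT in 35 of 77 members (62.9% of all genes) and replicate 2 in 59 (31.1% of all genes).

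**Figure D1:**
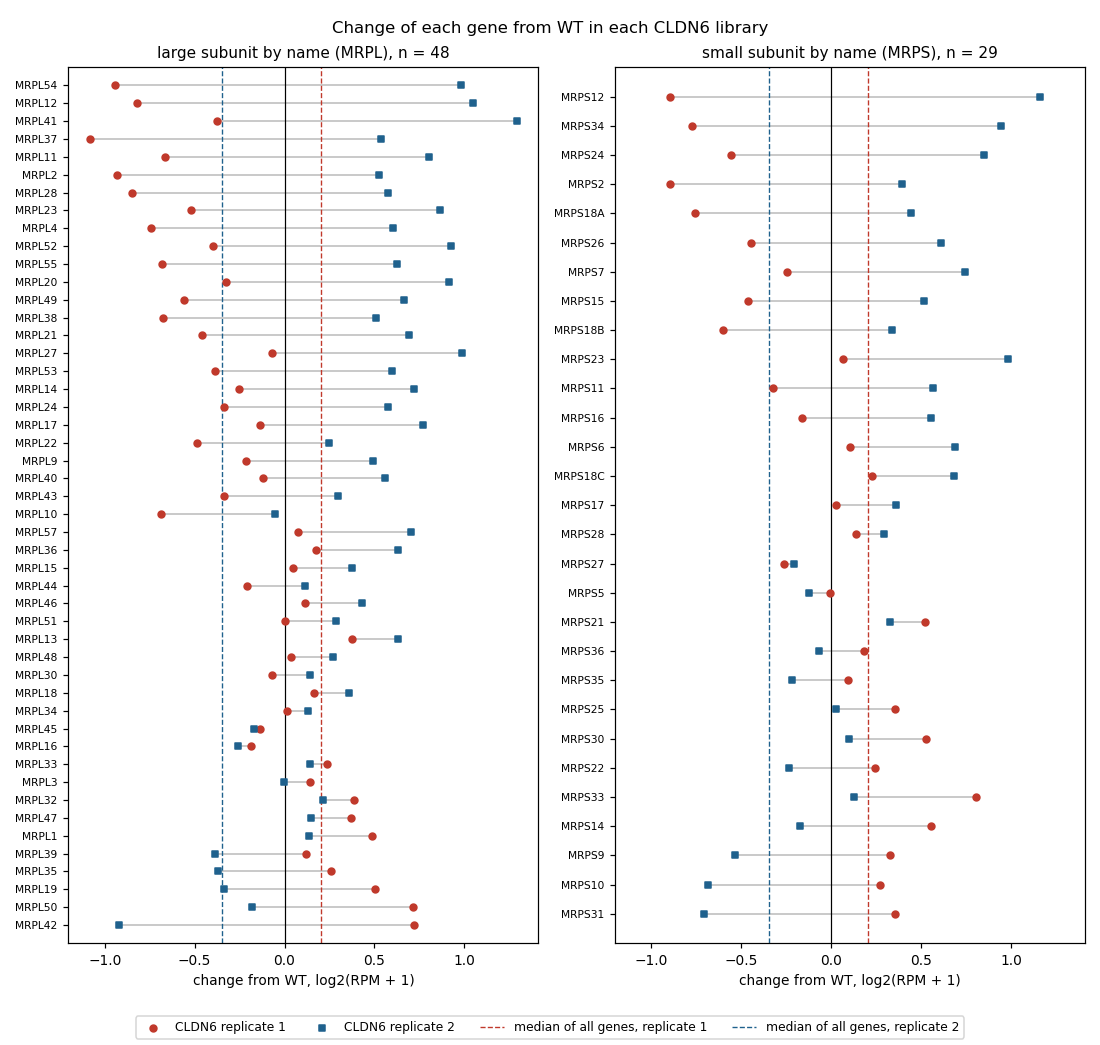
Change of each gene from WT on the log2(RPM + 1) scale in CLDN6 replicate 1 (circles) and replicate 2 (squares), 48 large and 29 small subunit genes by name, sorted by the difference between them; dashed lines mark the median of all genes in each library. Replicate 2 is the higher of the pair in 53 of 77 genes, against 4767 of 14509 genes tested. The lines are longest at MRPS12, MRPL54 and MRPL12.

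The summed level of the 77 genes was 2666, 4568 and 3217 RPM. WT thus lay between the CLDN6 libraries, nearer to replicate 1. The large subunit genes summed to 1604, 2894 and 1999 RPM and the small subunit genes to 1062, 1674 and 1217 RPM. The ratio of these sums was 1.51, 1.73 and 1.64. Single genes rested on 235 to 18087 reads in a library, so counting error was small beside these differences, and reads that are PCR copies are not independent molecules.

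In the large subunit, the genes with the most reads were MRPL12, MRPL37, MRPL49 and MRPL38. MRPL12 encodes the protein of the stalk to which translation factors bind. Its levels were 74.5, 275 and 132 RPM, and WT stood between a lower replicate 1 and a higher replicate 2. The log2 changes were -0.82 and 1.05, and their mean of 0.11 ± 0.93 (SE) did not pass the test (limma, adjusted p = 0.99996). MRPL12 (ENSG00000262814) lies on chromosome 17 from 81703357 to 81707526 on the plus strand of GRCh38, and its row overlaps that of SLC25A10, so reads of the overlap are uncertain. MRPL37, specific to mitochondria, was at 75.1, 232 and 160.1 RPM and was the only member at least 2-fold below WT in replicate 1, against 1.16% of all genes (its row overlaps SSBP3 and CYB5RL). MRPL49, also specific to mitochondria, was at 96.3, 226 and 142 RPM. Its row overlaps those of FAU, itself a ribosomal protein gene, and SYVN1. MRPL38 was at 65.7, 151 and 106 RPM. All of these had the same order of libraries, replicate 1 lowest and replicate 2 highest.

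**Figure D2:**
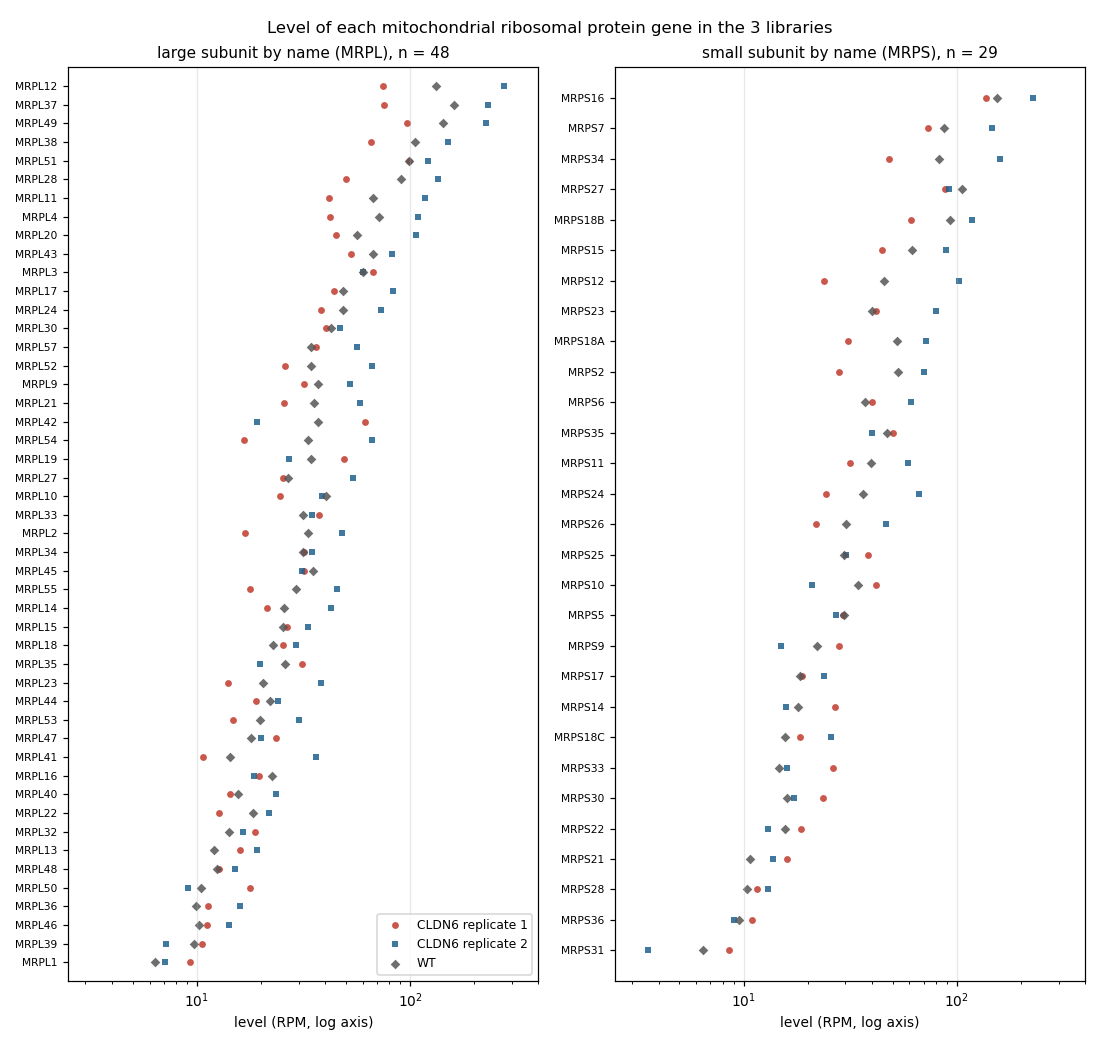
Level of each gene in RPM (log axis) in CLDN6 replicate 1 (circles), CLDN6 replicate 2 (squares) and WT (diamonds), sorted by mean level within each named subunit. MRPL12 reaches 275 RPM in replicate 2, and MRPS31 lies lowest, at 3.57 RPM in the same library; in the upper part of both panels replicate 2 mostly lies to the right.

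In the small subunit, MRPS16, MRPS7, MRPS34 and MRPS27 had the most reads. MRPS16, a counterpart of a bacterial protein whose loss causes an inherited defect of respiration, was at 137, 227 and 154 RPM. MRPS7, which binds the small subunit rRNA, was at 73.3, 147 and 87.0 RPM. MRPS34, specific to mitochondria and mutated in some patients with Leigh syndrome, was at 48.1, 160.3 and 82.9 RPM. These had the order of MRPL12, while MRPS27, an RNA-binding protein of the pentatricopeptide repeat type, was at 88.3, 92.1 and 106 RPM, with both CLDN6 libraries under WT. The rows of MRPS16 (DNAJC9), MRPS7 (GGA3, MIF4GD) and MRPS27 (PTCD2) overlap other genes and are uncertain for that reason.

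Counts of 2-fold differences are on the log2(RPM + 1) scale. On it MRPL41, MRPS12 and MRPL12 were at least 2-fold above WT in replicate 2, 3 of 77 members against 1.77% of all genes tested. As plain ratios of RPM, 5 members were, with MRPL27 and MRPL54 just past 2-fold, and no share over all genes is given for plain ratios. MRPS12, whose bacterial counterpart lines the decoding center, was at 23.9, 103 and 45.4 RPM, which is 4.30 times as high in replicate 2 as in replicate 1. It lies on chromosome 19 from 38930548 to 38933162, and its row overlaps SARS2, the gene of the mitochondrial seryl-tRNA synthetase. MRPL41 was at 10.7, 36.3 and 14.2 RPM. MRPL54 was at 16.7, 66.1 and 33.1 RPM, 3.96 times as high in replicate 2 as in replicate 1. No member was at least 2-fold above WT in replicate 1, against 6.69% of all genes, or at least 2-fold below it in replicate 2, against 18.4%. In both libraries at once, 0 members were at least 2-fold above WT (0.0345% of all genes) and 0 at least 2-fold below it (0.193%).

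The opposite order was widest in MRPL42, MRPS31, MRPS10 and MRPL50. MRPL42, specific to mitochondria, was at 61.6, 19.1 and 36.9 RPM, on chromosome 12 from 93467488 to 93516213. MRPS31 had the fewest reads of all members, at 8.54, 3.57 and 6.47 RPM, with an exact 95% Poisson interval of 3.13 to 4.06 RPM in replicate 2 that covers counting error only. Other members of low level were MRPL1 (9.27, 7.06 and 6.34 RPM), MRPL39 (10.6, 7.16 and 9.68 RPM) and MRPS28 (11.5, 13.0 and 10.4 RPM), with less distance between the libraries. MRPS10, a counterpart of a bacterial protein, was at 41.7, 21.0 and 34.4 RPM. MRPL50 was at 17.7, 9.05 and 10.4 RPM, so its replicate 2 lay near WT. These show WT within or at the edge of the CLDN6 pair, as for MRPL12, but with the ends exchanged. MRPL42 and MRPS31 were the 2 members at least 2-fold higher in replicate 1 than in replicate 2, against 36.2% of all genes, while 22 members were at least 2-fold higher in replicate 2, against 7.15%, on the log2(RPM + 1) scale. As plain ratios of RPM, 25 members were at least 2-fold higher in replicate 2, and no share over all genes is given for plain ratios.

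Of the 22 members above WT in both CLDN6 libraries, by the smaller of the changes the widest gaps were in MRPL13, MRPS21, MRPS18C, MRPL32, MRPL36 and MRPL18. MRPL13 was at 15.9, 19.2 and 12 RPM. MRPS21 was at 15.9, 13.8 and 10.8 RPM. MRPL36, a small zinc-binding protein of the large subunit, was at 11.3, 15.9 and 9.89 RPM. These are among the less abundant members, and their changes ran from 0.16 to 0.68 log2 units. MRPS18C was at 18.4, 25.6 and 15.6 RPM, MRPL32 at 18.7, 16.5 and 14.1 RPM, and MRPL18 at 25.5, 29.3 and 22.7 RPM. The 5 members below WT in both were MRPS27, MRPL16 (19.6, 18.6 and 22.5 RPM), MRPL45 (31.8, 31.0 and 35.0 RPM), MRPL10 (24.7, 38.8 and 40.3 RPM) and MRPS5 (29.4, 27.0 and 29.5 RPM). MRPS5 in replicate 1 and MRPL10 in replicate 2 were within 0.06 log2 units of WT, and the mean change of MRPS5 changed side under the TMM-like and RLE scalings.

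Further members were picked for their role. MRPL3, whose mutation causes a cardiomyopathy with lack of respiratory complexes, was at 66.8, 60.2 and 60.4 RPM. MRPL44, which has the fold of a double-strand RNA nuclease, was at 18.9, 24.0 and 22.1 RPM. MRPS22 was at 18.6, 13.1 and 15.6 RPM. MRPS2, a counterpart of a bacterial protein, was at 28.1, 70.1 and 53.2 RPM, more like MRPS34 than like these. In the large subunit, MRPL4 was at 42.3, 109 and 71.5 RPM, MRPL55 at 17.8, 45.4 and 29.1 RPM, and MRPL47 at 23.5, 19.9 and 17.9 RPM. Among the paralogs of the bacterial S18 protein, MRPS18A (30.8, 71.9 and 52.6 RPM) and MRPS18B (60.8, 117 and 92.6 RPM) shared the order of MRPL12, and MRPS18C did not. MRPS30, placed in the large subunit, was at 23.6, 17.2 and 16.0 RPM, and MRPS36, which is outside the ribosome, at 11.0, 9.03 and 9.54 RPM.

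The large and small subunit genes were compared by name. In replicate 1 the median change from WT was -0.16 over the 48 large and 0.07 over the 29 small subunit genes, beside 0.20 over all genes. In replicate 2 the medians were 0.50 and 0.34, beside -0.35 over all genes. Relative to all genes, the large subunit stood at -0.36 and 0.85 in replicates 1 and 2 and the small subunit at -0.14 and 0.69, so that both lay low in replicate 1 and high in replicate 2. The small subunit median in replicate 1 lay above WT as deposited and below it with TMM-like (-0.14), RLE (-0.15) or quantile (-0.14) scaling, while the other medians kept their sides. Over the mean of both CLDN6 libraries the subunits had the same change, 0.12 each, and the difference between them was -0.01. Within each subunit the changes of single genes spread over an interquartile range of 0.62 (large) and 0.72 (small) in replicate 1, several times the distance between the subunit medians. Placing MRPS18A and MRPS30 with the large subunit and leaving out MRPS36 gave medians of -0.16 and 0.47 for 50 large and 0.05 and 0.35 for 26 small subunit genes.

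Split by origin, the 46 members with a bacterial counterpart had medians of -0.10 in replicate 1 and 0.51 in replicate 2, and the 30 specific to mitochondria -0.13 and 0.32. In this split MRPS18A and MRPS18B were counted as specific to mitochondria and MRPS18C as having a bacterial counterpart. MRPS36 was in neither group. The 10 mitochondria-specific members of the small subunit, which include MRPS31, MRPS34 and MRPS27, had medians of 0.08 in both libraries. They were higher in replicate 2 in 5 cases and in replicate 1 in 5. Of all 14509 genes tested, 4767 were higher in replicate 2, and the medians were 0.20 and -0.35.

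Per kilobase of transcript, the scale on which genes can be compared, the median level of the members was 26.7, 41.4 and 31.9 RPM per kb. The medians of the large subunit genes were 26.4, 43.0 and 34.0, and those of the small subunit genes 27.6, 38.4 and 26.8 RPM per kb. The mRNA levels of the members ranged from 3.12 to 284 RPM per kb in WT. The transcript was that of median length among the basic protein-coding ones of GENCODE 29, so that the level of a gene with a longer main transcript is overstated. MRPL49 stood highest on this scale, with a mean of 309 RPM per kb, and its overlap with FAU bears on that level; its part in it was not tested.

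The members' split followed the base composition of their transcripts. In the 25 members of highest GC content (55.5% to 71.9%) the median difference of replicate 1 from replicate 2 was -1.31 log2 units, and 24 of them, MRPL12, MRPL54 and MRPS12 included, were higher in replicate 2. In the 26 of lowest GC content (35.0% to 46.4%) it was 0.28, and 19 were higher in replicate 1, among them MRPL42, MRPS31 and MRPS10. Over the 77 genes, all read in the same libraries, Spearman's rho of the difference was -0.79 against GC content and 0.26 against transcript length. Over the 14372 tested genes with both values rho was -0.59 and 0.36. The part of base composition in the split was not tested. In the same GC ranges, other genes had a median difference of 1.34 in the lowest range (n = 5045) and -0.24 in the highest (n = 4645). In the middle range it was 0.46 (n = 3980), where that of the members was -0.63. Of these other genes, 4689 of 5045 in the lowest range were higher in replicate 1. In the highest range, 2814 of 4645 were higher in replicate 2.

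A trend fitted over all genes, on GC content, length of the transcript and mean level, was taken out of each library. The correlation of the difference with GC content was then 0.01 over the 77 members, a value that removing a trend on GC content largely fixes in advance. Replicate 2 was then higher in 42 of 77 members, against 3237 of 14372 genes, and the count of members at least 2-fold apart went from 24 to 4. Over all genes that count went from 6296 of 14509 to 4130 of 14372. The medians after removal were 0.07 and 0.16 for the large and 0.09 and 0.02 for the small subunit in replicates 1 and 2, beside 0.18 and -0.35 over all genes. The 4 members still at least 2-fold apart, named after their values were seen, were MRPL22 (a difference of -1.61, higher in replicate 2) and MRPL42 (1.37), MRPS25 (1.19) and MRPL34 (1.16), higher in replicate 1. Of the members widest apart before, MRPS12 had a difference of -0.85 and MRPL12 of -0.35. With the library medians aligned as well, 69 of 77 members were higher in replicate 2, against 7460 of 14372 genes, with a median difference of -0.61.

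Members are often close to another gene. A protein-coding gene on the opposite strand, with its start at most 1000 bases upstream, was found for 17 of 77 members (22.1%), against 9.78% of 12683 protein-coding genes tested. MRPL46 and MRPS11 form such a pair with each other. MRPL46 was at 11.2, 14.1 and 10.2 RPM and MRPS11 at 31.5, 59.3 and 39.7 RPM, both highest in replicate 2 but with replicate 1 above WT for MRPL46 and below it for MRPS11. Partners of MRPL36 and MRPL47 are NDUFS6 and NDUFB5, genes of respiratory complex I. Rows of 43 members overlap another row of the table, and 34 members have named pseudogenes in GENCODE 29, 75 in all, of which the table lists 0, so reads shared with them are uncertain.

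Mitoribosome proteins that carry other names were like the members. Of 6 such genes, 4 had replicate 1 below and replicate 2 above WT, against 22.0% of all genes tested. The 6 had medians of -0.23 and 0.62. DAP3, a GTP-binding protein of the small subunit, was at 63.0, 77.4 and 69.1 RPM, AURKAIP1 at 47.9, 169 and 88.5 RPM, and GADD45GIP1, of the large subunit, at 48.2, 124 and 75.9 RPM. PTCD3, a pentatricopeptide protein of the small subunit, had the reverse order, at 48.8, 22.8 and 35.6 RPM, and is named after its values were seen. Limma called 0 of the 6, as it did in each list that follows, with 0 genes at an unadjusted p under 0.05; limma-voom was not run on the lists.

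The 25 genes of mitoribosome assembly had medians of -0.20 in replicate 1 and 0.29 in replicate 2, near those of the members. The RNA helicase DHX30 was at 96.9, 193 and 124 RPM and ERAL1, a chaperone of the small subunit rRNA, at 46.4, 102 and 76.0 RPM. NGRN was at 124, 132 and 108 RPM. The 16 translation factors had medians of 0.35 and -0.52, on the sides of WT that all genes took (0.20 and -0.35) and not those of the members. Their median GC content was 44.6%, against 49.6% in the members and 50.2% over all genes tested. Its part in these medians was not tested. The elongation factor TUFM, at 228, 622 and 390.4 RPM, had the order of MRPL12, and LRPPRC, which stabilizes mitochondrial mRNAs, was at 164, 54.7 and 120 RPM. OXA1L, which inserts the products into the inner membrane, was at 66.5, 83.8 and 94.2 RPM.

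**Figure D3:**
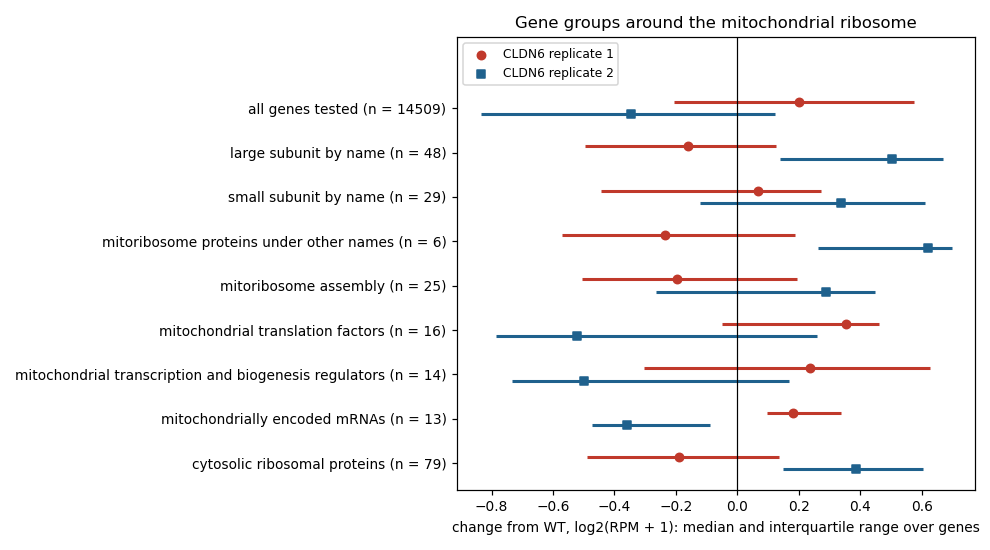
Median (symbol) and interquartile range over genes (line) of the change from WT on the log2(RPM + 1) scale in CLDN6 replicate 1 (circles) and replicate 2 (squares), for the subunits and the gene lists around them. All sets of ribosomal proteins and the assembly factors have replicate 2 on the right of replicate 1, and all genes, translation factors, regulators and mitochondrially encoded mRNAs have it on the left.

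The 13 protein-coding genes of mitochondrial DNA, whose mRNAs this ribosome translates, lay mostly on the sides of WT that all genes did. Replicate 1 was above and replicate 2 below WT in 11 of 13, against 53.8% of all genes tested. The 13 had medians of 0.18 and -0.36, close to those of all genes. MT-CO1 was at 5509, 3871 and 4632 RPM and MT-CO2, an exception, at 2601, 3435 and 2660.2 RPM. MT-ND4 was the next in level, at 2468, 1633 and 2265 RPM. No name among the rows kept starts with MT-RNR, so the rRNAs of the mitochondrial ribosome were not analysed here. Cytosolic ribosomal protein genes, of which 79 were tested, had medians of -0.19 and 0.38, like the members. Of the 79, 63 were higher in replicate 2, against 4767 of 14509 genes tested. RPLP0, the base of the cytosolic stalk, was at 2872, 6514 and 4227 RPM.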

How the data were processed

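RNA was measured in 3 libraries, grouped by the labels into 2 CLDN6 and 1 WT. Per the labels' protocols, TRIzol was used for total RNA and Illumina's standard procedure for the libraries. The authors deposited 1 table of log2 values per gene and library, log2 of RPM. GRCh38 is the build that the submitters' processing notes name. Aligner, counter, annotation and strandedness: not given in the sources used here. Column names begin with ECC-1, which is in no label, and were matched by the words CLDN6 1, CLDN6 2 and WT. Back-transformed values were whole multiples of 1 read's worth for 99.9% or more of values per library (tolerance 0.05 of a read), and genes listed at 0.9 of a read were set to 0. Between the CLDN6 replicates chi-square per gene was 601, above counting noise, so they are not 1 library deposited again; this says nothing of separate cultures. Of 35805 rows, 92 were left out because they lacked a gene ID or were empty repeats of one.

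Values were taken as log2(RPM + 1), and the 14509 genes whose mean reached 1 RPM were fitted with limma 3.58.1 (mean-variance trend, two-sided, Benjamini-Hochberg, threshold 0.05) in R 4.3.3, with 1 residual and infinite prior degrees of freedom. The log2 scale understates the change of low genes. The script was tested on simulated data. GC content and length came from GENCODE 29. Members and lists were chosen with earlier results of these data known. The members named were, in each subunit, the 4 of highest and the 4 of lowest mean RPM, the 6 farthest above and 6 farthest below WT in both CLDN6 libraries, those at least 2-fold from WT in a CLDN6 library, the 4 farthest apart between these in each direction, and 19 picked for role; of each list, up to 3 of highest mean RPM. Alternatives were a pseudocount of 0.1, no filter or 5 RPM, TMM-like, RLE and quantile scaling, removal of a GC, length and level trend, limma-voom, subunits by place, members without overlaps and each CLDN6 replicate left out.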

Additional observations from a re-analysis of the deposited data

How the results depend on the processing

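No member was called under any alternative, which says nothing of stability: with the spread of the CLDN6 pair, the test could not call changes of the size seen. With 1 CLDN6 replicate left out, the median change of the large subunit (0.12 with both) ranged from -0.16 to 0.50, changing side of WT, and that of the small subunit (0.12) from 0.066 to 0.34. Members below WT in both CLDN6 libraries numbered 5, and 1 with TMM-like, RLE or quantile scaling. They numbered 15 after removal of the trend with GC content, length and level, and 3 among members without overlapping rows. With 1 library alone 18 to 42 lay below. Over all genes, 2188 of 14509 lay below in both as deposited, and 1848, 1722 and 1940 with TMM-like, RLE and quantile scaling. After trend removal 2613 of 14372 did. With replicate 1 or 2 alone, 37.1% or 68.9% of all genes lay below. Members above WT in both numbered 22, and 14 with TMM-like or quantile scaling and 9 without overlapping rows. After trend removal they numbered 30 of 77, against 1924 of 14372 genes. With 1 library alone 35 to 59 lay above. Over all genes, 1315 of 14509 lay above in both as deposited, 1758 with TMM-like and 2145 with quantile scaling. With replicate 1 or 2 alone, 62.9% or 31.1% of all genes lay above. Members with a 2-fold or wider distance of replicate 1 from replicate 2 numbered 24, and 42 with TMM-like or RLE scaling and 39 with quantile normalization. They numbered 4 after trend removal, 14 with medians aligned as well (added after the data were seen) and 11 without overlapping rows. Over all genes, 6296 of 14509 were that far apart as deposited, and 5934, 5965 and 5173 with TMM-like, RLE and quantile scaling. After trend removal 4130 of 14372 were, and 2644 with medians aligned as well. The scalings shift the libraries against each other. Leaving out overlapping rows removes 43 of the 77 members, so those counts are out of fewer members. The cause of the other moves was not tested. Of 40 named members, 24 had a mean change whose sign depended on the replicate kept: MRPL12 (-0.82 to 1.05), MRPL3 (-0.0039 to 0.14), MRPL37 (-1.08 to 0.53), MRPL38 (-0.68 to 0.51), MRPL39 (-0.39 to 0.12), MRPL4 (-0.74 to 0.60), MRPL41 (-0.38 to 1.29), MRPL42 (-0.92 to 0.72), MRPL44 (-0.21 to 0.12), MRPL49 (-0.56 to 0.66), MRPL50 (-0.18 to 0.71), MRPL54 (-0.94 to 0.98), MRPL55 (-0.68 to 0.63), MRPS10 (-0.69 to 0.27), MRPS12 (-0.90 to 1.16), MRPS16 (-0.16 to 0.55), MRPS18A (-0.76 to 0.44), MRPS18B (-0.60 to 0.34), MRPS2 (-0.90 to 0.39), MRPS22 (-0.24 to 0.24), MRPS31 (-0.71 to 0.35), MRPS34 (-0.77 to 0.94), MRPS36 (-0.0706 to 0.18), MRPS7 (-0.25 to 0.75). Sign changes under other alternatives were all below 0.1 log2 units: under RLE scaling, MRPL38 (0.0177), MRPL4 (0.0325), MRPL44 (0.0522), MRPL55 (0.0765), MRPS5 (0.0345); under trend removed and medians aligned, MRPL38 (0.0818), MRPL4 (0.0406), MRPL44 (0.0236), MRPL55 (0.0789); under TMM-like scaling, MRPL4 (0.0145), MRPL44 (0.0346), MRPL55 (0.0585), MRPS5 (0.0170); under quantile normalization, MRPL42 (0.0613), MRPL44 (0.0084), MRPL49 (-0.0034), MRPL54 (-0.0700), MRPS34 (-0.0135); under limma-voom on recovered reads, MRPL54 (-0.0028); under trend with GC content, length and level removed, MRPS22 (-0.0523), MRPS36 (-0.0111). No paired analysis was possible because WT has 1 library and no replicate number. Each member had at least 235 reads in every library. What limits the comparison is the single WT library and the distance between the CLDN6 libraries.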

Other observations

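Regulators of mitochondrial transcription and biogenesis, 14 genes, had medians of 0.24 in CLDN6 replicate 1 and -0.50 in replicate 2. These lay opposite in side to the medians over the 77 members, -0.12 and 0.39. The small subunit genes alone had a replicate 1 median of 0.07, on the side of the regulators. Limma called 0 of the 14 regulators, with 0 at an unadjusted p under 0.05. On this list limma-voom was not run. All genes tested had medians of 0.20 and -0.35, on the same sides of WT as the regulators. The list's genes of highest level were YY1, MYC and PPRC1, and the others are named after their values were seen. PPRC1, a coactivator gene related to PPARGC1A, was at 42.0, 73.3 and 53.9 RPM. The coactivator gene PPARGC1A was read at 22.0, 0.365 and 4.81 RPM in CLDN6 replicate 1, CLDN6 replicate 2 and WT, the widest distance between the CLDN6 libraries in the list. YY1, whose letters stand in 13 of 68 member promoters, was at 110.1, 49.0 and 90.7 RPM. GABPA and GABPB1, the subunits of the ETS factor GABP, were at 43.2, 14.7 and 25.5 RPM and at 20.2, 6.17 and 12 RPM. Both were lowest in replicate 2, a library in which 68.9% of all genes tested lay below WT. Any tie between these levels and the members was not tested. NRF1 was at 17.5, 20.2 and 19.7 RPM. For MYC the levels were 57.9, 77.0 and 75.5 RPM. The mitochondrial RNA polymerase gene POLRMT was at 29, 70.7 and 60.8 RPM.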
